A study of Homo sapiens with 10 samples.

Results

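SOS2, RASGRF2 and GAB2, which act between growth factor receptors and Ras, were followed in HEK293T cells, a line from human embryonic kidney, after exposure to bacterial extracellular vesicles (bEVs). They are 3 of 14884 genes with a symbol here and were taken by symbol, each through its probe set with the highest mean signal. They were chosen with their values on these arrays already known, so the differences between bEV and control arrays are given as a description, with no test. The 10 microarrays (Affymetrix Human Gene 2.0 ST) held 8 bEV arrays, 1 for each Lactobacillales strain (L. acidophilus, L. fermentum, L. paracasei, L. plantarum, L. rhamnosus, L. salivarius, Lc. lactis and S. thermophilus), and 2 control arrays. Exposure to the bEV lasted 6 h. The dose was the highest that cells tolerated for that bEV, so strain and dose cannot be told apart. Replicate RNA was pooled before hybridization, so there was a single array per bEV and no measure of how cultures vary. Nothing says whether the 2 controls came from separate cultures, and any p-value measures only the spread between these arrays. Where the 8 bEV arrays are set against the 2 controls, that spread includes differences between strains and doses, with no replicate of any bEV.

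Ras is a small GTPase of the inner plasma membrane that is switched on by exchange factors, which replace its GDP with GTP, and switched off by GTPase-activating proteins. SOS2 is an exchange factor that is carried to activated receptors by the adaptor GRB2 and is expressed in most tissues beside its close relative SOS1. RASGRF2 is an exchange factor that responds to calcium through calmodulin, acts on Ras and on Rac, and is best known from neurons. GAB2 is a docking protein that binds GRB2 and, once phosphorylated on tyrosine, recruits phosphatidylinositol 3-kinase and the phosphatase SHP2.

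The promoters of the 3 genes are shown because SOS2 and GAB2 were high on the same arrays, and RASGRF2 was not. Each is the run of 250 bases before a RefSeq start site on GRCh38.p14, written 5′ to 3′ on the strand of the gene. For SOS2 that start lies inside the annotated gene, and so does the whole window. Capitals mark matches to any of 6 short motifs, searched on both strands.
SOS2, chr14:50231579-50231828, minus strand: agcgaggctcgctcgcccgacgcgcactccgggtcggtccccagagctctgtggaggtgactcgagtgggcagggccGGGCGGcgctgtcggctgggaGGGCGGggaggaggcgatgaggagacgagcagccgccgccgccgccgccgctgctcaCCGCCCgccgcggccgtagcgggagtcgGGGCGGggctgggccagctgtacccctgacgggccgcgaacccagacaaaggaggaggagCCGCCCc
GAB2, chr11:78417821-78418070, minus strand: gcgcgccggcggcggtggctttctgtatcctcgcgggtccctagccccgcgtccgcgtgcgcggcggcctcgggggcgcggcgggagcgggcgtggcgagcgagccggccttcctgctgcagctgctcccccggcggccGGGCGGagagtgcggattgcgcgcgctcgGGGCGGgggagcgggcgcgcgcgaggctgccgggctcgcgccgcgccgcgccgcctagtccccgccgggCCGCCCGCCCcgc
RASGRF2, chr5:80960113-80960362, plus strand: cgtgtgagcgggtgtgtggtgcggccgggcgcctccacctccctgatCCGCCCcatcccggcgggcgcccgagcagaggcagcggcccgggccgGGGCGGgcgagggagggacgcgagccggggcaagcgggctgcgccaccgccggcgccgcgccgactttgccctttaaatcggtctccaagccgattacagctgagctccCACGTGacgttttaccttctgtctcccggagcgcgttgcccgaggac
The GC box (GGGCGG, or CCGCCC on the other strand) matched 5 times in the SOS2 window, which lies within the annotated gene. It matched 4 times before GAB2, where a pair of matches overlaps, and 2 times before RASGRF2. Of all 35116 promoter windows of this length, 42.6% hold it. The E-box CACGTG matched 1 time, before RASGRF2, and is held by 6.3% of the windows. The letters of the AP-1 site (TGACTCA), the cAMP response element (TGACGTCA), the ETS site (CCGGAAG) and the CCAAT box (CCAAT) are in none of the 3 windows, and 4.2%, 1.6%, 8.5% and 32.0% of all windows hold them. G and C make up 76.8% of the SOS2 window, 84.0% of the GAB2 window and 72.8% of the RASGRF2 window, against a median of 58.0% over all windows. A further GAB2 start site in the table, at chr11:78341919, lies inside the gene, and its window has 41.2% G and C and none of the 6 motifs. These matches describe the letters and do not show binding.

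The arrays were checked as HEK293T cells from a short list of markers. LIN28B, VIM and KRT18 had signals of at least 7.32 on the 10 arrays, while KRT8 lay between 3.73 and 4.53 and PAX2 between 4.10 and 5.15. The 6 measured markers of leukocytes, fibroblasts, endothelium and hepatocytes lay between 1.65 and 3.64. All signals are on the log2 scale as deposited, and no detection call comes with them. Genes are measured by different probes. Levels of different genes are therefore compared only in this check and where genes are ranked or split by mean signal.

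SOS2 was higher than both controls with 7 of the 8 bEVs, and its mean over the 8 bEV arrays was 0.54 above the mean of the controls on the log2 scale, or 1.46-fold. Its log2 signal was 7.25 with L. rhamnosus bEV, 7.23 with L. paracasei, 6.96 with S. thermophilus, 6.94 with L. fermentum, 6.91 with Lc. lactis, 6.81 with L. plantarum, 6.73 with L. acidophilus and 6.32 with L. salivarius, against 6.24 in control 1 and 6.47 in control 2. The L. salivarius array lay between the controls and the other 7 lay above both. Of all genes, 11.3% had at least 7 bEV arrays above both controls.

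**Figure D1:**
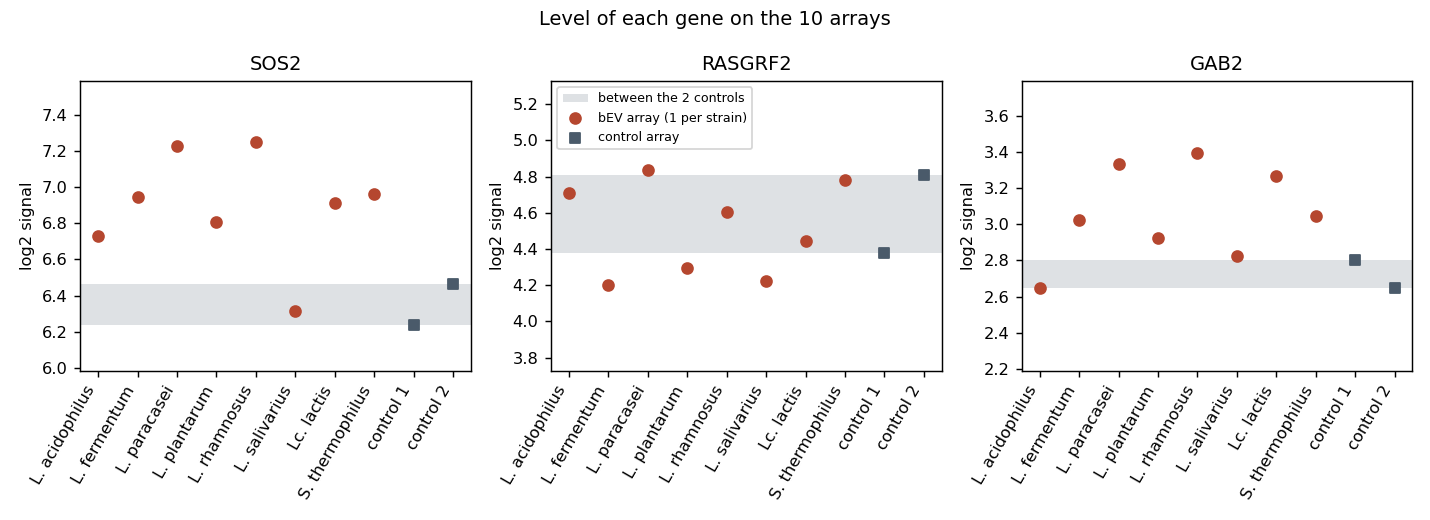
Log2 signal of SOS2, RASGRF2 and GAB2 (y axes, each spanning the same number of log2 units) on the 8 bEV arrays and the 2 control arrays (x axis). Points are single arrays and the band spans the 2 controls. SOS2 lies above the band with 7 bEVs, GAB2 with 7 and RASGRF2 with 1.

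The size of the SOS2 difference depended on the control. With L. rhamnosus it was 1.01 above control 1 and 0.78 above control 2, and with L. paracasei 0.99 and 0.76. These were the 2 bEVs past 1.5-fold (0.585 on the log2 scale) against each control, which 1.35% and 1.34% of all genes reached on these arrays, and 1.38% on at least 2 arrays. S. thermophilus, L. fermentum and Lc. lactis had 0.72, 0.71 and 0.68 above control 1 but 0.50, 0.48 and 0.45 above control 2. With L. salivarius, SOS2 was 0.08 above control 1 and 0.15 below control 2.
Relative to the controls' mean, SOS2 was 1.86-fold higher with L. rhamnosus, 1.84-fold with L. paracasei, 1.53-fold with S. thermophilus and 1.51-fold with L. fermentum. These 4 bEVs passed 1.5-fold, as did 2.46%, 2.65%, 1.81% and 1.75% of all genes in the same direction, and 0.605% of all genes did so with at least 4 bEVs. L. fermentum stood just inside the cutoff at a log2 difference of 0.59, and Lc. lactis just outside it at 0.56. L. plantarum and L. acidophilus had 0.46 and 0.38.
Ordered by SOS2, most neighbouring bEVs differed by less than the 0.23 between the controls. The steps that exceeded it were those of L. salivarius to L. acidophilus, 0.41, and of S. thermophilus to L. paracasei, 0.27. The other 5 steps were 0.11 or less, so the order of Lc. lactis, L. fermentum and S. thermophilus is within the gap between the controls.

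GAB2 followed a similar order of bEVs. Its log2 signal was 3.39 with L. rhamnosus bEV, 3.33 with L. paracasei, 3.27 with Lc. lactis, 3.04 with S. thermophilus, 3.02 with L. fermentum, 2.93 with L. plantarum, 2.83 with L. salivarius and 2.65 with L. acidophilus, against 2.80 in control 1 and 2.65 in control 2. Again 7 bEV arrays lay above both controls (11.3% of all genes had at least 7), but L. salivarius did so by 0.02 alone. L. acidophilus lay 0.001 below control 2. The mean signal of GAB2 ranked at percentile 25.2 of all genes, and whether it was above background is not known from these values.
Its largest differences were smaller than those of SOS2. Against control 1 and control 2, GAB2 was higher by 0.59 and 0.74 with L. rhamnosus, by 0.53 and 0.68 with L. paracasei and by 0.46 and 0.62 with Lc. lactis. L. rhamnosus passed 1.5-fold against each control, as did 1.35% of all genes, and 5.46% did so with at least 1 bEV. Against their mean, L. rhamnosus (1.59-fold) and L. paracasei (1.52-fold) passed it (3.33% of all genes did so with at least 2 bEVs), while Lc. lactis stood just outside at 1.45-fold. S. thermophilus, L. fermentum, L. plantarum, L. salivarius and L. acidophilus had log2 differences of 0.32, 0.30, 0.20, 0.10 and -0.08. Over the 8 bEV arrays, the mean difference was 0.33.
The controls were 0.15 apart in GAB2, and 54.1% of all genes had a larger gap between the controls. Ordered by GAB2, the steps of S. thermophilus to Lc. lactis, 0.22, and of L. acidophilus to L. salivarius, 0.18, exceeded that gap. The steps within the upper group of Lc. lactis, L. paracasei and L. rhamnosus were 0.07 and 0.06.

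**Figure D2:**
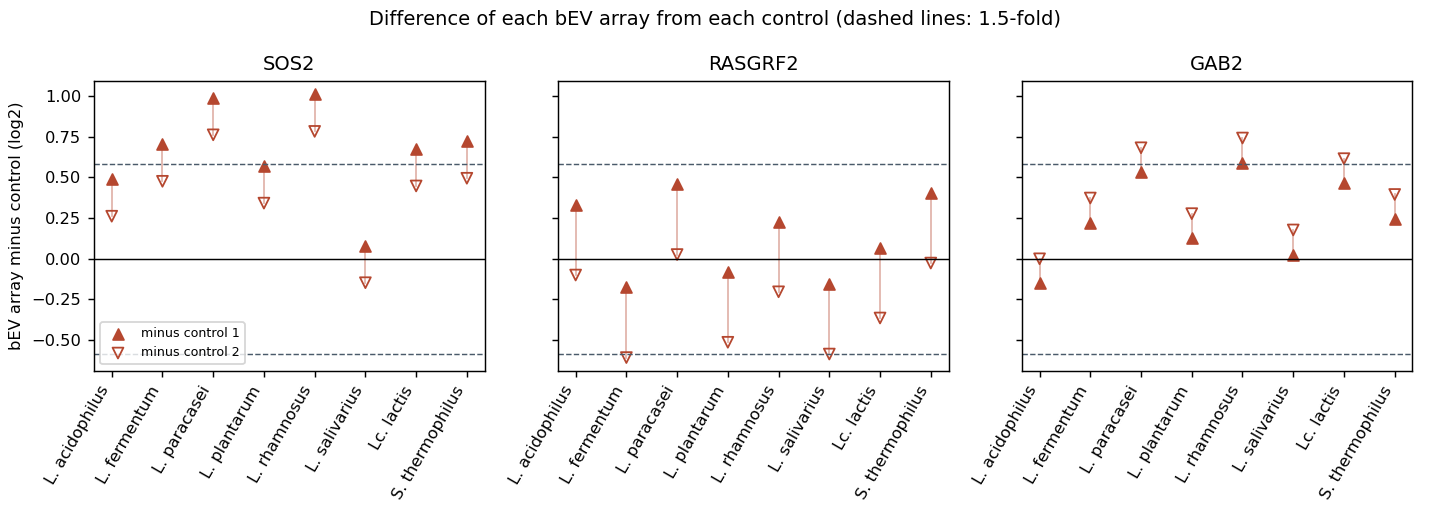
Difference in log2 signal (y axis) of each bEV array (x axis) from control 1 (filled triangles) and from control 2 (open triangles) for SOS2, RASGRF2 and GAB2, with dashed lines at 1.5-fold. Both triangles lie above the upper line for SOS2 with L. rhamnosus and L. paracasei and for GAB2 with L. rhamnosus, and RASGRF2 stays between the lines against control 1.

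RASGRF2 did not separate the bEV arrays from the controls. Its log2 signal was 4.83 with L. paracasei bEV, 4.78 with S. thermophilus, 4.71 with L. acidophilus, 4.60 with L. rhamnosus, 4.44 with Lc. lactis, 4.29 with L. plantarum, 4.22 with L. salivarius and 4.20 with L. fermentum, against 4.38 in control 1 and 4.81 in control 2. The controls were 0.43 apart, a gap that 12.6% of all genes exceeded, and 4 bEV arrays lay between them. L. paracasei lay above both by 0.03 or more, and L. plantarum, L. salivarius and L. fermentum lay below both.
Of all genes, 77.4% had at least 1 bEV array above both controls and 46.9% had at least 3 below both. The mean over the 8 bEV arrays was 0.08 below the mean of the controls. Set against 1 control, it was 0.13 above control 1 and 0.30 below control 2. No bEV passed 1.5-fold against control 1 or against the controls' mean. Against control 2 alone, L. fermentum and L. salivarius were lower by 1.5-fold, with log2 differences of -0.61 and -0.59, a size that 2.73% and 2.63% of all genes reached there. All 7 steps between neighbouring bEVs were smaller than the gap between the controls.
RASGRF2 has 2 probe sets on the array, and SOS2 and GAB2 have 1 each. The other RASGRF2 probe set had a log2 signal of 2.99 to 3.57 on the bEV arrays, against 3.35 in control 1 and 3.03 in control 2. Here control 1 was the higher one, by 0.31. Over the 10 arrays, both probe sets had a Pearson r of -0.03, so they did not give the same order of arrays. In the annotation, the antisense gene RASGRF2-AS1 overlaps the start of RASGRF2 (chr5:80960363-81230162), and the protein-coding gene USP35 overlaps GAB2 (chr11:78215293-78417820). No gene in the annotation table overlaps SOS2 (chr14:50117130-50231882).

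SOS2 and GAB2 were highest in the same arrays. L. rhamnosus and L. paracasei ranked at the top for both genes, and S. thermophilus, L. fermentum and Lc. lactis took the next places in both. Over the 10 arrays, the Pearson r of SOS2 with GAB2 was 0.81, and over the 8 bEV arrays 0.79. L. acidophilus broke this order. It had the lowest GAB2 of all arrays, by 0.001, while its SOS2 was above both controls. RASGRF2 had an r of 0.35 with SOS2 and 0.09 with GAB2 over the 10 arrays. These values describe arrays that share one normalization, and each strain adds 1 point.

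**Figure D3:**
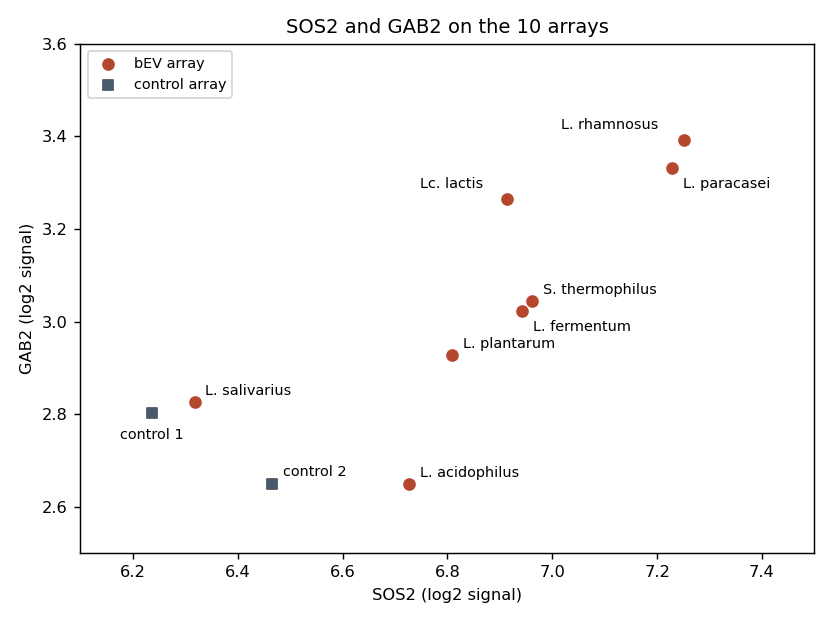
Log2 signal of SOS2 (x axis) and GAB2 (y axis) on the 10 arrays, with circles for bEV arrays and squares for controls. L. rhamnosus and L. paracasei lie at the upper right, L. salivarius beside control 1, and L. acidophilus at the level of control 2 for GAB2.

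Among the 7442 genes in the upper part of the signal range, split at the median, those most like SOS2 over the 10 arrays were LRP12, a member of the LDL receptor family (r = 0.98), DCAF7 and DCAF17, substrate receptors of cullin ubiquitin ligases (0.97 and 0.96), WDR7, a partner of the vacuolar proton pump (0.95), and ZNF236, a zinc finger protein (0.95). LRP12 had log2 signals of 5.85 to 6.42 on the bEV arrays, against 5.85 and 5.83 in control 1 and control 2, a narrower span than that of SOS2. In all, 65 genes had an r of at least 0.9 with SOS2.
Those most like GAB2 were RASEF, an atypical Rab GTPase (0.98), SESN2, a stress-induced inhibitor of mTORC1 (0.96), GRB10, an adaptor of the insulin receptor (0.96), SNRK, a kinase related to AMPK (0.95), and CLIC4, an intracellular chloride channel protein (0.95). SESN2 ran from 7.15 to 8.46 on the bEV arrays, against 6.93 in control 1 and 6.98 in control 2. Here 23 genes had an r of at least 0.9.
For RASGRF2, the leading genes were NELFA, a subunit of the negative elongation factor (0.90), MAP3K14-AS1 (0.89), FBXW9, an F-box protein (0.86), MIR4502 (0.84) and the docking protein DOK3 (0.82). NELFA was the 1 gene with an r of at least 0.9. With so many genes and 10 arrays, high values of r are found for many genes, and no more is read from them.

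The close relatives of the 3 genes were read on the same arrays. Among the bEV arrays, SOS1 was lowest where SOS2 was highest. Its log2 signal on the bEV arrays ran from 7.14 with L. rhamnosus to 7.73 with S. thermophilus (median 7.49), against 7.37 in control 1 and 7.05 in control 2. With L. rhamnosus, the difference from the mean of both controls was 0.90 in SOS2 and -0.07 in SOS1, and with L. salivarius it was -0.03 and 0.40. With S. thermophilus both were higher, by 0.61 and 0.52. The Pearson r of SOS2 with SOS1 was -0.66 over the 8 bEV arrays and -0.09 over all 10. In limma over all genes, SOS1 had a mean difference of 0.27 (adjusted p = 0.509), less than the 0.32 between the controls, and it was 0.11 against control 1 alone.
RASGRF1, the relative of RASGRF2, had log2 signals of 3.02 to 3.39 on the bEV arrays (median 3.19), against 3.44 in control 1 and 3.27 in control 2. It lay below both controls with 7 bEVs, where 10.2% of all genes had at least 7 such arrays. Its mean difference was -0.17 (limma, adjusted p = 0.601), no larger in size than the 0.17 between its controls.
GAB1, which like GAB2 binds GRB2 and recruits SHP2, ran from 4.95 to 5.46 on the bEV arrays (median 5.21), against 5.00 in control 1 and 5.22 in control 2, and 3 bEV arrays lay above both. GAB3, a relative best known from blood cells, ran from 2.18 to 3.05 (median 2.64), against 3.06 in control 1 and 3.17 in control 2. All 8 bEV arrays were below both controls in GAB3, where 10.2% of all genes had at least 7 such arrays. L. acidophilus and L. paracasei passed 1.5-fold against each control (1.46% of all genes did so downward with at least 2 bEVs). The mean signal of GAB3 ranked at percentile 19.9 of all genes, and whether it was above background is not known from these values. Its mean difference was -0.51 (limma, adjusted p = 0.344), opposite in sign to that of GAB2.

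**Figure D4:**
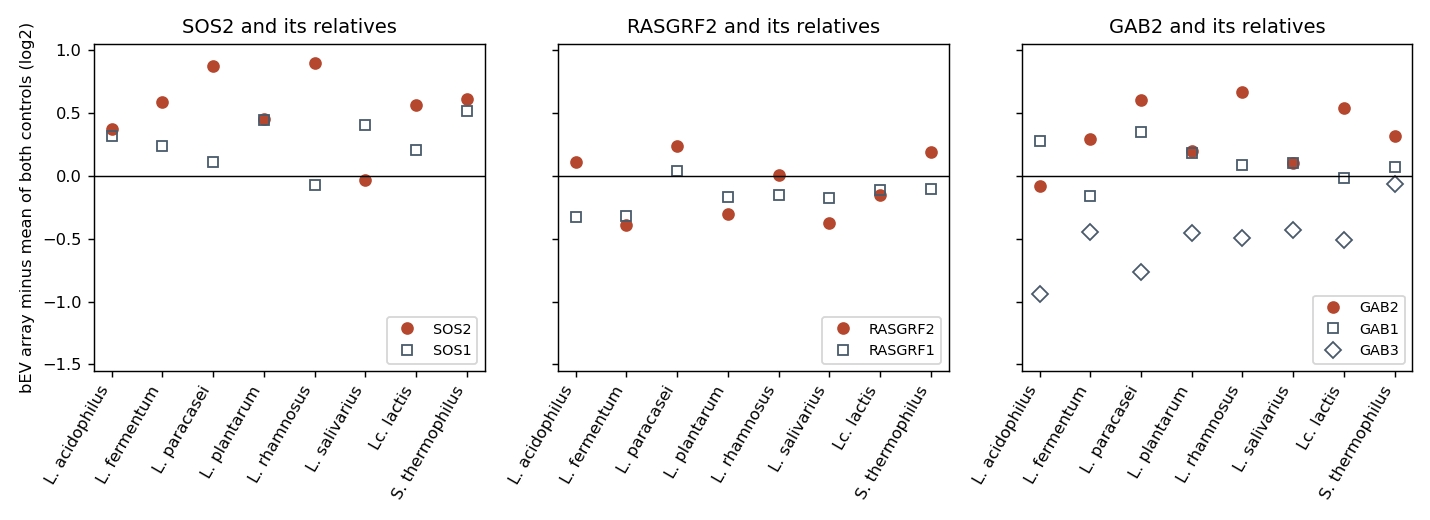
Difference in log2 signal (y axis) of each bEV array (x axis) from the mean of both controls, with filled circles for SOS2, RASGRF2 and GAB2 and open symbols for their relatives. With L. rhamnosus and L. paracasei, SOS2 stands at 0.90 and 0.88 while SOS1 stays at -0.07 and 0.11, and GAB3 lies below 0 with all 8 bEVs.

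The other genes of the Ras pathway were read from lists of exchange factors, docking proteins, Ras GTPases, GTPase-activating proteins, effectors, feedback inhibitors, ERK-induced transcripts and receptor tyrosine kinases. Beside SOS2, RASGRF2 and GAB2, 85 of the listed genes had a symbol here. With limma, 0 of them passed an adjusted p of 0.05 in either direction for the 8 bEV arrays against the 2 controls, as did 0 (0%) of all genes. At an unadjusted p under 0.05, 6 were higher and 6 lower, 14.1% of the 85, beside 11.3% of all genes (5.92% higher and 5.38% lower). Their median difference was 0.003, beside 0.001 over all genes. Of these pathway genes, 43 were higher and 42 lower than the mean of the controls, beside 7474 and 7410 of all genes. Of the 85, 11 (12.9%) had at least 7 bEV arrays above both controls, beside 11.3% of all genes. At least 7 lay below both in 8 (9.4%), beside 10.2% of all genes. The lowest adjusted p among the 85 was 0.335. A p above the threshold sets no bound on small changes. In limma for single bEVs against both controls, 0 of the 85 passed with any bEV, as did 0 (0%) of all genes, and 54 of 680 tests of the 85 (7.94%) had an unadjusted p under 0.05, beside 6.6% of the tests of all genes. Those fits have 1 residual degree of freedom, from the 2 controls, and nothing is read from the lack of calls.

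**Figure D5:**
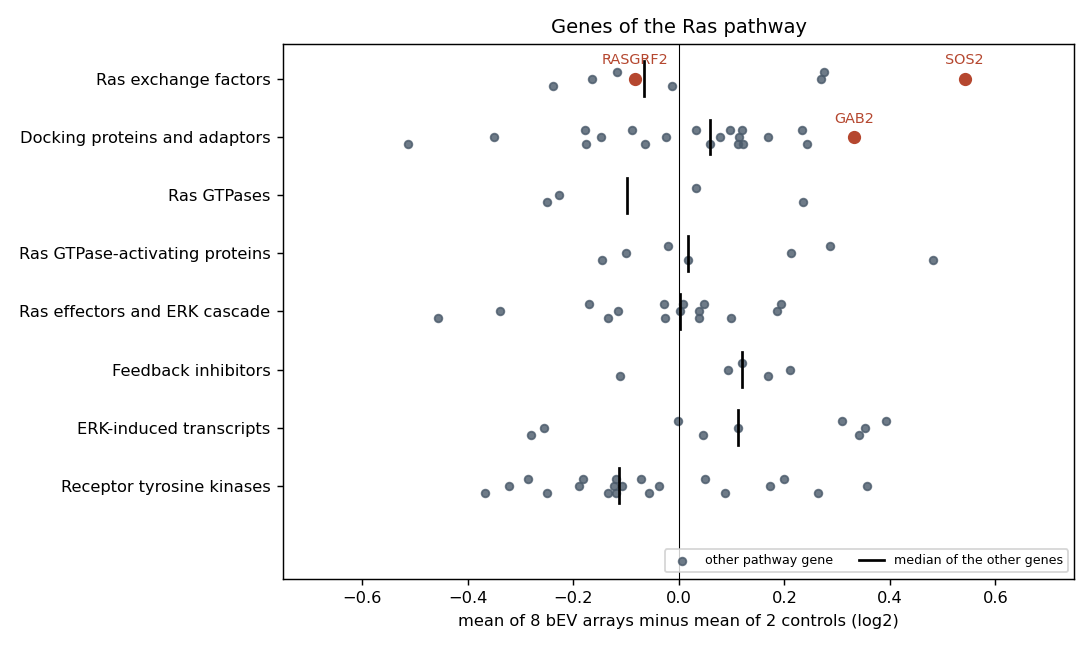
Mean of the 8 bEV arrays minus the mean of the 2 controls in log2 units (x axis) for each measured gene of 8 Ras pathway lists (rows), with a bar at the median of each list without SOS2, RASGRF2 and GAB2. SOS2 at 0.54 lies to the right of the other exchange factors, and the medians lie between -0.11 and 0.12.

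Among the 6 other exchange factors, 2 had a positive and 4 a negative mean difference. RASGRP1, which answers to diacylglycerol and is best known from T cells, had the highest at 0.28, below the 0.31 between its controls, and RASGRP3 the lowest at -0.24, also within the 0.31 between its controls. RASGRP3 came to -0.08 against control 1 alone and to -0.08 with low signals floored. The 19 other docking proteins and adaptors had a median of 0.06, led by GRB10 at 0.24. GRB10 ran from 5.01 to 5.49 on the bEV arrays (median 5.26), against 5.01 in both controls (limma, adjusted p = 0.536). It had 7 arrays above both, where 11.3% of all genes had at least 7. GRB2, the carrier of SOS proteins, stayed between 7.53 and 7.77 (median 7.72), against 7.65 in control 1 and 7.63 in control 2. SHC1, an adaptor that links receptors to GRB2, had 6.84 to 7.04, against 6.90 in control 1 and 6.80 in control 2.
Of the Ras GTPases, 4 were measured. HRAS had 5.98 to 6.37 on the bEV arrays (median 6.20), against 6.60 in control 1 and 6.32 in control 2. Its mean difference was -0.25 (limma, adjusted p = 0.459), within the 0.27 between its controls. MRAS, a relative that scaffolds a phosphatase complex for RAF kinases, had the highest mean difference of the 4, at 0.24, below the 0.27 between its controls. Of 7 GTPase-activating proteins, RASA2 had the highest mean difference. It was above both controls on all 8 bEV arrays, where 11.3% of all genes had at least 7 such arrays. It ran from 5.08 to 5.55 (median 5.30), against 5.03 in control 1 and 4.65 in control 2, a mean difference of 0.48 (limma, adjusted p = 0.335). RASAL3 had the lowest mean difference of these 7, at -0.15, which was -0.05 without the L. fermentum array and -0.01 against control 2 alone.
Downstream, 15 effectors and kinases had a median of 0.003. MAP2K1, a kinase that phosphorylates ERK, had the highest mean difference at 0.19, below the 0.24 between its controls. RGL3, an exchange factor for Ral that binds Ras, had the lowest at -0.46 (limma, adjusted p = 0.344), within the 0.48 between its controls. It ran from 4.07 to 4.50 on the bEV arrays, against 4.50 in control 1 and 4.98 in control 2, and the difference was -0.22 against control 1 alone. The 5 feedback inhibitors ran from -0.11 in the ERK phosphatase DUSP5 to 0.21 in the Sprouty gene SPRY3. The controls were 0.63 apart in DUSP5 and 0.22 apart in SPRY3.
The 9 ERK-induced transcripts had a median of 0.11, with 6 higher and 3 lower (all genes: 7474 higher, 7410 lower). ETV5, an ETS factor, passed 1.5-fold against each control with L. plantarum (4.27) and L. acidophilus (3.84), against 3.25 in control 1 and 3.12 in control 2. It was 1 of the 85 to do so upward with at least 2 bEVs, as did 1.38% of all genes. With L. rhamnosus, ETV5 stood at 3.68. Its mean difference was 0.39 (limma, adjusted p = 0.523). CCND1, which encodes cyclin D1, had the lowest of the list at -0.28, within the 0.33 between its controls.
The 20 receptor tyrosine kinases had a median of -0.11, with 6 higher and 14 lower (all genes: 7474 higher, 7410 lower). ERBB4, a neuregulin receptor, had the highest mean difference at 0.36. RET, a receptor for glial cell line-derived factors, had the lowest at -0.37 (limma, adjusted p = 0.351). All 8 bEV arrays lay below both controls in RET, where 10.2% of all genes had at least 7 such arrays. FGFR2 was lower by 1.5-fold than each control with L. rhamnosus (4.26) and L. salivarius (4.29), against 4.90 in control 1 and 4.98 in control 2. With GAB3 it made 2 of the 85 to do so downward with at least 2 bEVs, as did 1.46% of all genes. With L. rhamnosus, where SOS2 and GAB2 were highest, 2 of the 85 genes (2.35%) were higher and 3 (3.53%) lower by 1.5-fold than the controls' mean, beside 2.46% and 2.18% of all genes.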

How the data were processed

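HEK293T RNA was hybridized to 10 arrays, 8 from bEV-treated cells and 2 from control cells. The deposited table gives, for 53617 probe sets, a signal on the log2 scale, and the submitters' processing notes name MAS5 without a version. The authors name GeneChip Command Console Software for data analysis. How background was corrected and how signals were normalized and summarized is not given in the sources. The medians of the 10 arrays lie between 3.29 and 3.33, and the values were used as deposited. The number of arrays limits the precision. Titles of some bEV arrays number the cell line differently, and a protocol field names another agent (Pk2), while the cell line field and the methods give HEK293T and bEVs. The labels spell Lc. lactis as Lc. lactics.

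A probe table named 16098 probe sets with 1 symbol each, 0 of them with several, while 37519 are unnamed here. Symbols were checked by Entrez ID against RefSeq for GRCh38.p14, and 0 changed. Where a gene had more than 1 probe set (779 genes), the brightest on average stood for it, giving 14884 genes. Differences are bEV array minus control on the log2 scale. limma 3.58.1 (R 4.3.3) was fitted over all 14884 genes with Benjamini-Hochberg adjustment, for the 8 bEV arrays against 2 controls (8 residual degrees of freedom) and for each bEV against both controls (1 residual degree of freedom, the lone array assumed to vary like the controls). Both fits were tested on simulated data. Of 100 genes planted with a change of 1 on the log2 scale, the fit of 8 arrays recovered 97%. The fit for a single bEV recovered 64%, and both fits made some false calls. Python 3.11.15, numpy 2.4.6 and pandas 2.3.3 were used for the rest. Sequences are from RefSeq tables of GRCh38.p14, in which all 3 genes matched.

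The genes and lists were chosen with earlier results of these data known. Beside the 3 genes, the text names SOS1, RASGRF1, GAB1, GAB3, GRB2, SHC1 and HRAS, pathway genes past 1.5-fold against each control in at least 2 bEV arrays, the highest and lowest mean difference of each list, and the 5 genes of highest Pearson r with each of the 3. Listed genes without a symbol here were not analysed. Alternatives were quantile normalization, centring on array medians, a floor, the mean of probe sets, genes of higher signal alone, limma with trend and robust variance, and each array left out.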

Additional observations from a re-analysis of the deposited data

Results flagged for a closer look

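RASGRF2 was above both controls with L. paracasei bEV, by 0.03 over control 2, and below both with L. fermentum bEV. These arrays were 0.635 apart on the log2 scale. On the other RASGRF2 probe set, both arrays lay between the controls. There L. paracasei had 3.29 and L. fermentum 3.34, against 3.35 in control 1 and 3.03 in control 2. GAB2 was above both controls with L. rhamnosus and below both with L. acidophilus, 0.744 apart, although L. acidophilus lay 0.001 below control 2. Both differences between strains rest on 1 array each and were not tested. No array stood apart from the other 7 bEV arrays by Dixon's criterion in the 3 genes or in the 22 named pathway genes.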

How the results depend on the processing

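The mean difference of SOS2 ran from 0.43 (control 2 alone) to 0.66 (control 1 alone) and that of GAB2 from 0.26 to 0.41 with 1 array left out. That of RASGRF2 ran from -0.30 to 0.13, so its sign depends on the control, and it was 0.07 with the other probe set, an alternative chosen after seeing the data. GAB2 passed 1.5-fold against the controls' mean with 2 bEVs and with 1 after centring. It did so with 1 and 3 against control 1 and control 2 alone. SOS2 did so with 4 bEVs, with 3 after quantile normalization or centring, and with 5 and 2 against control 1 and control 2 alone. limma called 0 genes for the 8 bEV arrays, 0 to 2 with 1 array left out (ZNF808 and MIR4536-1 without control 2) and 3 with low signals floored (CFAP65-AS1, RAPH1 and TIMP4). None of these is in the Ras pathway lists. The median of the pathway genes was 0.0484 over genes with a mean signal of 4.63 or more, against 0.003. No median over all genes was taken at that signal, so this move is not read as one of the pathway. With 1 control left out, the fit for single bEVs has no residual degrees of freedom and was not run. Of the 22 named pathway genes, 16 moved by over 1.5 times when 1 control was left out. Against control 1 alone and control 2 alone, the mean difference was -0.42 and 0.20 in DUSP5, the 1 gene of the 22 that changed sign in any alternative, -0.45 and -0.12 in CCND1, 0.52 and 0.19 in ERBB4, 0.22 and 0.01 in GAB1, -0.39 and -0.11 in HRAS, 0.07 and 0.31 in MAP2K1, 0.10 and 0.37 in MRAS, 0.29 and 0.68 in RASA2, -0.28 and -0.01 in RASAL3, -0.25 and -0.08 in RASGRF1, 0.43 and 0.12 in RASGRP1, -0.08 and -0.39 in RASGRP3, -0.22 and -0.70 in RGL3, 0.07 and 0.17 in SHC1, 0.11 and 0.43 in SOS1, and 0.10 and 0.32 in SPRY3. The other 6 (ETV5, FGFR2, GAB3, GRB10, GRB2 and RET) stayed within 1.5 times. GRB2 was 0.02 after quantile normalization and SPRY3 0.11 with the mean of probe sets. DUSP5 also moved by over 1.5 times without the L. acidophilus (-0.17), L. rhamnosus (-0.17) or L. paracasei (-0.07) array. No paired analysis was possible because no label pairs a bEV array with a control, and each strain has 1 array.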
